A study of Mus musculus with 6 samples.

Results

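miR-335-5p and miR-335-3p, the mature miRNAs cut from the 5′ and the 3′ arm of the mouse hairpin mir-335, were followed across 6 small RNA libraries of extracellular vesicles from mouse brain. The members are the entries of these names, 2 of 1926 miRNA entries listed in the authors' deposited RPM table, of which 775 were detected. They were proposed with the SE against CON values of this series in view, so that contrast is given for them as values and as a standard error, without a p. In the first group, SE, the vesicles came from brain tissue of mice that had gone through status epilepticus, a prolonged seizure, and in the second, CON, from matched control mice, with 3 libraries in each group. A time of 24 hr is named in the title of the series. The labels name no strain, age, sex, seizure-inducing agent, brain region or vesicle isolation method, and do not say whether a library is 1 animal or a pool. The spread between libraries may therefore be technical.

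A miRNA is a short RNA that guides Argonaute proteins to messenger RNAs and lowers their translation and stability, mainly by pairing through its seed, bases 2 to 8 from the 5′ end. Of the arms of a hairpin, usually one is kept in Argonaute as the guide and the other is mostly degraded. mir-335 lies in an intron of Mest, also called Peg1, an imprinted gene that is transcribed from the paternal copy and encodes a membrane hydrolase of the developing mesoderm and nervous system. miR-335-5p is known as a suppressor of metastasis in human breast cancer cells and as a regulator of mesenchymal stem cells. In the brain it has been reported to lower voltage-gated sodium channel mRNAs, which carry the rising phase of the action potential.

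In GRCm38.p6, a later build than the mm9 named in the submitters' processing notes, RefSeq places the hairpin on the plus strand of chromosome 6, from 30741299 to 30741396. In the GENCODE M21 annotation of GRCm38, Mest spans chromosome 6 from 30723547 to 30748465 on the same strand. The hairpin falls in an intron of 6 of the 7 protein-coding Mest transcripts, in an exon of 0 and outside the remaining 1. In the 12-exon transcript Mest-211 it is intron 2, from 30740825 to 30742140, which is 1316 bases long. The mature sequences, from RefSeq, are shown because the results set one arm against the other, with the seed in capitals.
miR-335-5p: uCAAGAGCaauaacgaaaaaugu
miR-335-3p: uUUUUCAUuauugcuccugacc
The hairpin is shown with both mature arms in capitals, so that their place in the stem can be seen.
mir-335 hairpin: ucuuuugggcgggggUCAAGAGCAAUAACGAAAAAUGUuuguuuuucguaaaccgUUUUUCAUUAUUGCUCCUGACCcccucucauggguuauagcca

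Folded with RNAfold, 18 of the 23 bases of the 5p arm paired with the 3p arm, across a loop region of 17 bases. Neither seed was shared with another miRNA: among 1679 mature mouse names in the RefSeq table, 0 others had the seed CAAGAGC and 0 others UUUUCAU. Both arms are poor in G and C. miR-335-5p holds 30.4% G or C and miR-335-3p 36.4%, against a median of 50% for the 251 of 290 tested entries that had a RefSeq sequence.

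Levels are in RPM, the reads of a miRNA scaled to all reads that the library assigned to listed miRNAs. The SE libraries held 6016533 to 10845434 such reads and the CON libraries 5482407 to 6504884. In the authors' deposited RPM table the miRNA names go with the SE columns, while the CON columns are in another row order. Each CON value below was therefore assigned to its miRNA by matching it to the base means in the fold change table that the authors deposited. For each arm 1 CON row matched within a relative 1e-08, and the next closest row was off by 0.0373 for miR-335-5p and by 0.00187 for miR-335-3p. The CON reads of miR-335-5p stood in the row named miR-24-3p, and those of miR-335-3p in the row named miR-466c-5p. Directions follow the column names SE and CON. Some miRNAs reported to rise in brain tissue after status epilepticus were lower in the libraries labelled SE. The log2 difference, SE minus CON, was -2.02 for miR-155-5p, -1.72 for miR-21a-5p, -0.72 for miR-212-3p and -0.51 for miR-132-3p, of which the first pair passed the test described below. miR-146a-5p went the other way, at 0.65 (standard error 0.26), and did not pass that test. The lower values run against what the labels would give if vesicles followed tissue, and whether vesicles do was not tested. Every direction given for miR-335 rests on the same labels.

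miR-335-5p, the guide arm, was lower in the SE libraries than in every CON library. Given here and below in the order of replicates 1, 2 and 3, it stood at 2069, 2128 and 2007 RPM in the SE libraries and at 3206, 2309 and 4120 RPM in the CON libraries. The SE libraries lay close together and the groups did not overlap, although the highest SE library was only slightly below the lowest CON library, CON replicate 2 (-7.84%). The mean was 2068 ± 60.3 RPM in SE libraries, against 3212 ± 906 RPM in CON libraries (SDs over 3 libraries each), a ratio of 0.644. In bulk vesicle RNA, fewer vesicles that carry a miRNA and less of it per vesicle cannot be told apart.

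**Figure D1:**
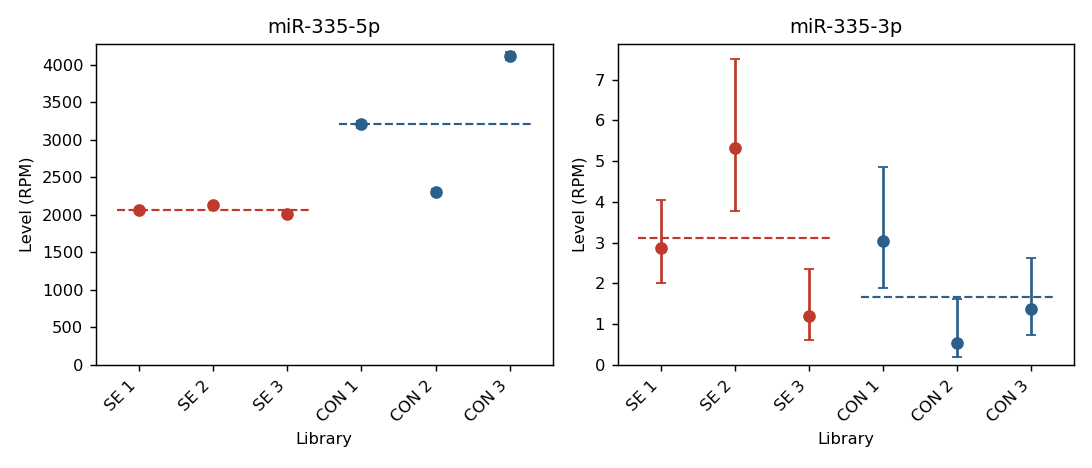
Level of each miR-335 arm in each library, in RPM on linear axes that start at 0 and differ between the panels. Points are libraries, bars are 95% Wilson intervals for counting error (smaller than the point for miR-335-5p) and dashed lines are group means: miR-335-5p lies at 2007 to 2128 RPM in SE and at 2309 to 4120 RPM in CON libraries, while the miR-335-3p values of the groups overlap.

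Counting error was small beside these differences. miR-335-5p had 22435, 12801 and 13428 reads in the SE libraries and 17935, 12657 and 26802 in the CON libraries, and its share of the reads had 95% Wilson intervals of 0.204% to 0.210% in SE replicate 1 and 0.407% to 0.417% in CON replicate 3. Such intervals cover counting error only. By level it ranked from 30 to 33 among all entries in the SE libraries and from 24 to 31 in the CON libraries. It stood next to miR-24-3p and miR-129-5p in mean RPM over the 6 libraries. miR-24-3p, a broadly expressed miRNA, had 2829 ± 131 RPM in SE libraries, against 3074 ± 200.04 RPM in CON libraries (SDs over 3 libraries each). miR-129-5p, a neuronal miRNA, had 2496 ± 137.4 RPM in SE libraries, against 2775 ± 394 RPM in CON libraries (SDs over 3 libraries each). In CON libraries the 3 miRNAs lay within the spread of miR-335-5p, and in SE libraries miR-335-5p was below both by more than the SDs. The next neighbours were miR-26b-5p above, at 2846 ± 195 RPM in SE libraries, against 3434 ± 368 RPM in CON libraries (SDs over 3 libraries each), and miR-9-3p below, at 2124 ± 221 RPM in SE libraries, against 2576 ± 526 RPM in CON libraries (SDs over 3 libraries each).

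The groups also differed in how far their libraries lay apart for miR-335-5p. The coefficient of variation (SD over mean) was 2.91% among SE libraries and 28.2% among CON libraries, where counting alone gives at most 0.884% and 0.889%. The 20 miRNAs nearest in mean level, 10 above and 10 below, which averaged 1430 to 7151 RPM, had a median of 10.7% in SE and 14.0% in CON libraries. 19 of these 20 varied more than miR-335-5p among SE libraries, and 0 of the 20 varied more than it among CON libraries, where their highest value was 24.3%. These coefficients are of RPM values. Divided by the size factors of the authors' deposited table, a scaling factor for each library, the reads gave 12650, 14831 and 15007 in the SE libraries. They gave 19571, 15414 and 25942 in the CON libraries. On that scale SE replicate 1 stood apart from the other SE libraries, and the coefficients were not computed. The set of 20 was chosen after the data were seen, and these counts are a description of 3 libraries a group.

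**Figure D2:**
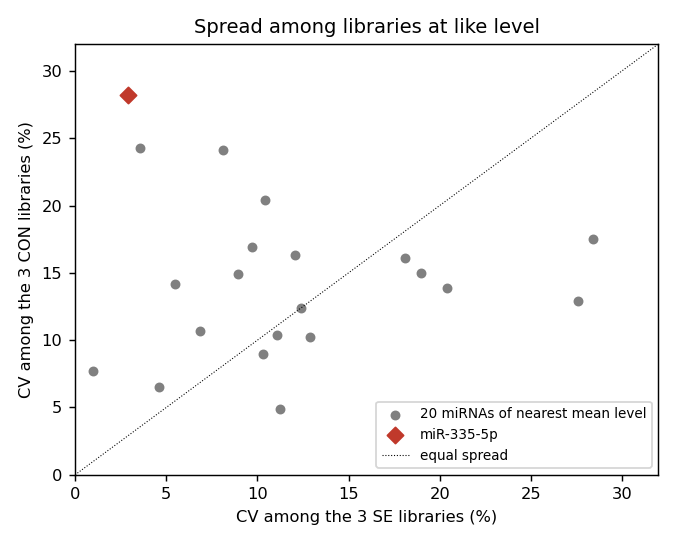
Coefficient of variation of RPM among the 3 SE libraries (x axis, %) and among the 3 CON libraries (y axis, %) for miR-335-5p (diamond) and the 20 miRNAs of nearest mean level (points), with a dotted line of equal spread. miR-335-5p has 2.91% in SE and 28.2% in CON libraries and lies above all 20 on the CON axis.

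Across the whole table, 290 miRNAs averaged 10 RPM or more and were tested with limma-trend on the log2(RPM + 1) scale, on which changes of low miRNAs appear smaller than they are. It called 3 of them, 1.03%, at a Benjamini-Hochberg adjusted p under 0.05. miR-155-5p and miR-21a-5p were lower in SE libraries (0.69%), and miR-872-5p was higher in SE libraries (0.345%). The call of miR-872-5p sets a mean of 29.9 RPM for SE against a CON mean of 0. Its mean over all libraries, 14.96 RPM, thus passed the filter through the SE group alone. The other arm, miR-872-3p, was present in both groups (means: SE 10.4 RPM, CON 12.5 RPM) and was not called. Why miR-872-5p has no CON reads was not tested. At an unadjusted p under 0.05 there were 27 of the 290, 9.31%, and limma-voom on the reads also called 1.03%. miR-335-5p was not called. Its log2 difference, SE minus CON, was -0.60 (standard error 0.19), against a median of -0.07 over the 290. 9 of the 290 had a lower difference. All 3 SE values lay below all 3 CON values for 39 of the 290, 13.4%, and miR-335-5p is one of these. In 22 of the 39 the lowest CON library was replicate 2, as it was for miR-335-5p. The share over all 290 was not counted.

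The value depended on the scaling and on which CON libraries were kept. With median-of-ratios scaling it was -0.49 and with quantile normalization -0.41, and miR-335-5p was not called in either. Without CON replicate 2 it was -0.81 and miR-335-5p was called, with 6 calls among the 290, or 2.07%. Without CON replicate 3 it was -0.40, with 5 calls, and miR-335-5p was not among them. With the CON rows left under the names as deposited, the CON values would be 2005, 1777 and 2275 RPM, numbers that belong to miR-411-5p, and the log2 difference would be 0.04.

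**Figure D3:**
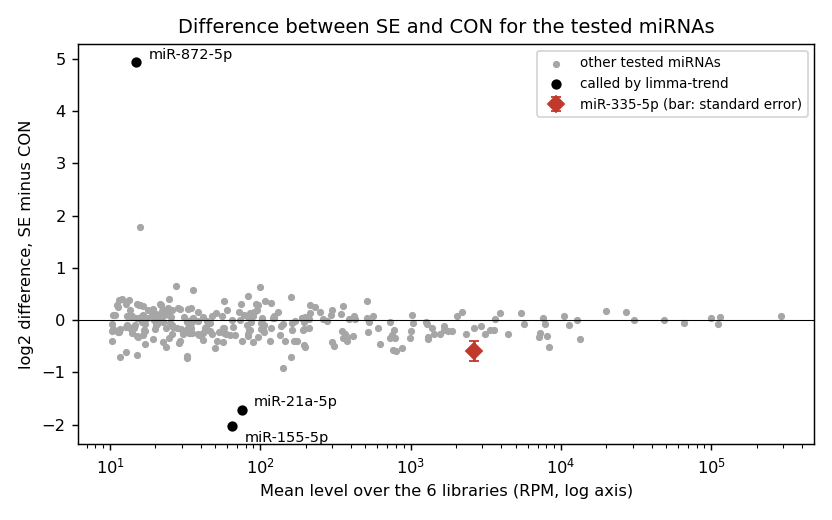
log2 difference, SE minus CON, on the log2(RPM + 1) scale (y axis) against the mean level over the 6 libraries (x axis, RPM, log axis) for the 290 tested miRNAs. Black points are the 3 called miRNAs, and the diamond is miR-335-5p at -0.60 with its standard error of 0.19, among the lowest values of the abundant miRNAs.

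The authors' deposited table gives miR-335-5p a base mean of 17236 normalized counts and a log2 fold change of 0.52 (standard error 0.21). The table does not name its direction. Dividing the reads by size factors gave means of 14162 normalized reads in SE and 20309 in CON libraries, and the log2 ratio of CON over SE of these means is also 0.52, so positive values in the authors' deposited table go with higher levels in CON. The base means of the same table served to assign the CON reads, so this value is no independent measurement. The authors' deposited table calls 8 of 772 miRNAs at an adjusted p under 0.05, 1.04%, and neither arm is among them.

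miR-335-3p, the passenger arm, was close to the limit of detection and its groups overlapped. It stood at 2.86, 5.32 and 1.196 RPM in the SE libraries and at 3.04, 0.547 and 1.38 RPM in the CON libraries. These values rest on 31, 32 and 8 reads in the SE libraries and on 17, 3 and 9 reads in the CON libraries. SE replicate 2 was highest and CON replicate 2 lowest, and SE replicate 3 was below CON replicates 1 and 3. The mean was 3.12 ± 2.07 RPM in SE libraries, against 1.66 ± 1.27 RPM in CON libraries (SDs over 3 libraries each). The difference in the group means was smaller than the SD of the SE libraries.

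miR-335-3p was under the filter of 10 RPM and was not in the fit. On log2(RPM + 1) its difference, SE minus CON, was 0.62, with a pooled SD between libraries of 0.73, so its sign was opposite to that of miR-335-5p. The authors' deposited table lists a log2 fold change of -1.03 (standard error 0.95) for miR-335-3p, positive again meaning higher in CON. By level it ranked from 352 to 514 in the SE libraries and from 437 to 562 in the CON libraries. Of its nearest neighbours, miR-34c-3p averaged 2.47 ± 2.34 RPM in SE libraries, against 2.35 ± 0.659 RPM in CON libraries (SDs over 3 libraries each). miR-448-5p averaged 2.15 ± 0.461 RPM in SE libraries, against 2.64 ± 0.970 RPM in CON libraries (SDs over 3 libraries each). miR-325-5p and miR-135b-5p, next below, averaged 2.26 and 2.90 RPM in SE and 2.48 and 1.80 RPM in CON libraries. All of these lay within the SDs of miR-335-3p.

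The 5p arm made up nearly all reads of the hairpin in every library. There were 724, 400.03 and 1678 reads of miR-335-5p per read of miR-335-3p in the SE libraries, against 1055, 4219 and 2978 in the CON libraries. The 3p share of the reads of both arms was 0.138%, 0.249% and 0.0595% in the SE libraries and 0.0947%, 0.0237% and 0.0336% in the CON libraries. SE replicate 2 had the highest 3p share and CON replicate 2 the lowest. SE replicate 3 lay below CON replicate 1, so the groups overlapped. The 95% Wilson interval of the 3p share was 0.177% to 0.352% in SE replicate 2 and 0.00806% to 0.0697% in CON replicate 2. Pooled over the group there were 71 reads of the 3p arm beside 48664 of the 5p arm in SE libraries, and 29 beside 57394 in CON libraries. The mean log2 difference of 3p minus 5p was -9.10 ± 0.72 over the SE libraries and -10.31 ± 0.60 over the CON libraries (SDs, n = 3 each). SE minus CON this is 1.21, from arms that were chosen with the contrast known, and it was not tested.

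Among hairpins with both arms detected under names of their own, 123 with a larger 5p arm and 76 with a larger 3p arm, the larger arm exceeded the smaller by a median of 14.6-fold, from mean RPM over the 6 libraries. miR-335, at 1104-fold, ranked 17. Among the 30 whose larger arm reached 1000 RPM the median was 417-fold and miR-335 ranked 12, between miR-151 and miR-185. Hairpins whose arms are listed under merged or copy-numbered names were not used here.

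**Figure D4:**
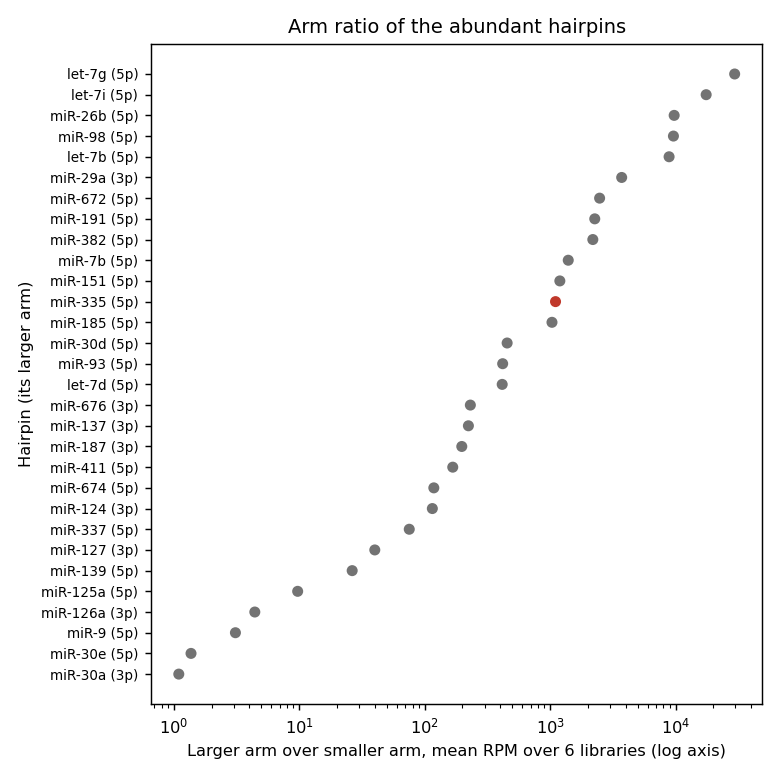
Ratio of the larger to the smaller arm (x axis, log axis, from mean RPM over the 6 libraries) for the 30 hairpins whose larger arm reached 1000 RPM, sorted, with the larger arm in parentheses. miR-335 (red) has a ratio of 1104 in favour of 5p and ranks 12.

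The miRNAs whose levels followed miR-335-5p most closely were found by Pearson's r of log2(RPM + 1) over the 6 libraries among the other tested miRNAs. They share the libraries and the scaling with it, and no p is given because they were selected by r. The 5 with the highest r were miR-708-3p (0.97), miR-29c-3p (0.96), miR-1a-3p (0.95), miR-26b-5p (0.95) and miR-126a-5p (0.93), with Spearman's rho from 0.60 to 0.94. miR-29c-3p acts on collagen and other matrix mRNAs, miR-1a-3p is a muscle miRNA, miR-26b-5p lies in an intron of Ctdsp1 and miR-126a-5p in an intron of the endothelial gene Egfl7. miR-29c-3p had 649, 603 and 569 RPM in the SE libraries, against 1027, 656 and 1064 RPM in the CON libraries. Like miR-335-5p, it was lowest of the CON libraries in replicate 2 and highest in replicate 3. miR-708-3p, at 94.6 to 105 RPM in SE and 101 to 159 RPM in CON libraries, did not separate the groups. None of the 5 was called by limma-trend, and their log2 differences ran from -0.56 to -0.27.

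With the group means taken out, 3 other miRNAs led. These were miR-15a-5p (r of 0.99), which acts on BCL2 mRNA in human cells, the merged entry of miR-101a-3p, 101b-3p and 101c (0.98), and miR-384-3p (0.97), a brain miRNA. This measure reflects mostly the order of the CON libraries, since the SE values of miR-335-5p hardly vary in RPM. miR-15a-5p had 25.4, 28.9 and 27.1 RPM in the SE libraries and 33.3, 22.3 and 46.7 RPM in the CON libraries.

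The content of G and C was set beside these patterns. Of the named miRNAs that matched a RefSeq sequence, miR-384-3p had the lowest content, 27.3%, and miR-708-3p the highest, 45.5%. The 20 miRNAs with the highest r had a median of 40.9% G or C, with single values from 23.8% to 69.2%. The 20 with the lowest r had a median of 57.4%. Across 250 miRNAs with a sequence, r with miR-335-5p and G or C content had a Pearson correlation of -0.44, a description over miRNAs measured in the same libraries. The log2 difference, SE minus CON, and G or C content had a weaker one of 0.18 across the same 250. The 36 tested miRNAs other than miR-335-5p with at most 40% G or C had a median log2 difference, SE minus CON, of -0.18, and the 44 with over 60% had 0.07. By library, the median deviation of the 36 from their own 6-library means was 0.01, -0.12 and -0.25 in the SE libraries, against 0.16, -0.14 and 0.28 in the CON libraries. For miR-335-5p it was -0.30, -0.26 and -0.34 in the SE libraries and 0.34, -0.14 and 0.70 in the CON libraries. In both, CON replicate 3 was highest and CON replicate 2 below the mean. The 44 miRNAs with over 60% had 0.31, -0.03 and -0.20 in the SE libraries, against -0.07, 0.10 and -0.12 in the CON libraries, and were of the opposite sign to the 36 in every CON library. The difference of miR-335-5p was 0.42 lower than the median of the 36, of which 3 had a lower one than miR-335-5p. The part of base composition in the result was not tested, and the limits of 40% and 60% were chosen after the data were seen.

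**Figure D5:**
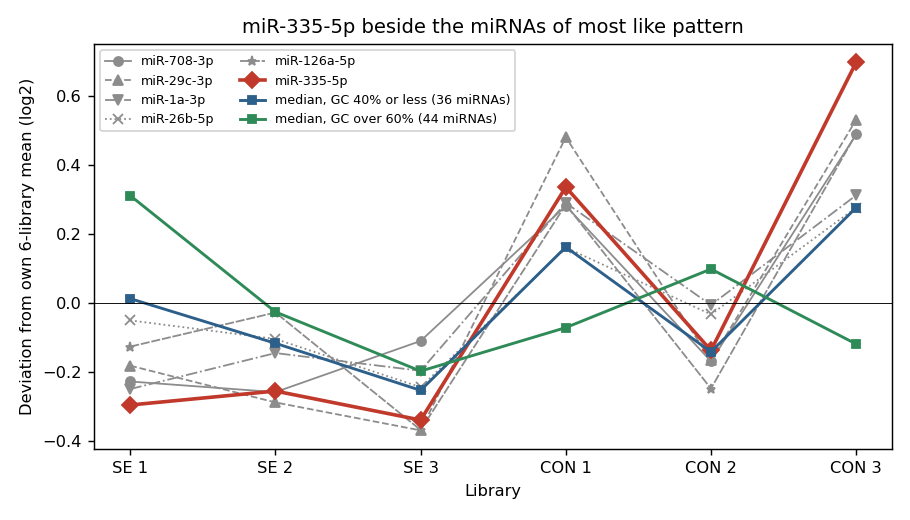
Deviation from the miRNA's own mean over the 6 libraries (y axis, log2 of RPM + 1) by library (x axis) for miR-335-5p (diamonds), the 5 miRNAs of highest r (grey) and the medians of 36 miRNAs with at most 40% and 44 with over 60% G or C. miR-335-5p reaches 0.70 in CON replicate 3 and -0.14 in CON replicate 2, and the low G or C median has 0.28 and -0.14 there.

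mir-335 is one of several imprinted miRNA loci, and others were described from lists, which leave out the imprinted Sfmbt2 cluster. Of 10 arms of mir-296, mir-298, mir-483, mir-675 and mir-184, which lie at Gnas, Igf2, H19 and near Rasgrf1, 6 were detected and 4 tested. limma-trend called 0 of the 4, and 0 had an unadjusted p under 0.05, beside 1.03% called and 9.31% at that p over all tested. Their median log2 difference was 0.07, against -0.07 for all tested, and without SE replicate 1 it was -0.14. miR-298-5p, the most abundant, had 191 ± 60.1 RPM in SE libraries, against 184.4 ± 52.99 RPM in CON libraries (SDs over 3 libraries each). miR-296-3p had a log2 difference of -0.52 (standard error 0.38) and miR-184-3p one of 0.10 (standard error 0.25), neither called. Of 53 tested entries of the imprinted Dlk1-Dio3 locus, the large maternally expressed miRNA cluster, limma-trend called 0, with 3 (5.66%, against 9.31% over all tested) at an unadjusted p under 0.05 and a median of -0.14. The most abundant, miR-382-5p, miR-127-3p and miR-411-5p, had log2 differences of 0.08, -0.08 and -0.22. None of the tested entries of these imprinted loci had a lower log2 difference than miR-335-5p, which was chosen with this contrast in view. miR-376b-3p of the Dlk1-Dio3 locus was close to it, at -0.58 (standard error 0.20) beside -0.60 (standard error 0.19). limma-voom on the reads also called 0 in both lists.

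A list, not complete, of other miRNAs that lie in introns of protein-coding genes gave 37 tested entries. limma-trend and limma-voom called 0 of them, with 3 (8.11%, against 9.31% over all tested) at an unadjusted p under 0.05 by limma-trend, a median log2 difference of -0.10, and 1 entry below miR-335-5p. The most abundant were miR-26a-5p from Ctdsp genes (0.01), miR-151-5p from Ptk2 (-0.10) and miR-128-3p from R3hdm1 and Arpp21 (-0.33). miR-128-3p, which damps neuronal excitability in mice, had 6281 ± 224 RPM in SE libraries, against 8020 ± 1945 RPM in CON libraries (SDs over 3 libraries each).

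A list of miRNAs linked to neuronal excitability or epilepsy had 19 tested members beside miR-335-5p, with a median log2 difference of -0.14. Of the 19, 14 were below 0. limma-trend called 2 of the 19, 10.5%, both lower in SE libraries, beside 1.03% called in either direction and 0.69% called lower over all tested. At an unadjusted p under 0.05 were 5 of the 19, 26.3%, beside 9.31% over all tested. miR-155-5p, an inflammation-induced miRNA, had 25.3 ± 3.52 RPM in SE libraries, against 105 ± 5.84 RPM in CON libraries (SDs over 3 libraries each), with an adjusted p of 4.36e-06 by limma. miR-21a-5p, induced in reactive glia, had 33.8 ± 2.11 RPM in SE libraries, against 116 ± 32.5 RPM in CON libraries (SDs over 3 libraries each), with an adjusted p of 1.05e-04 by limma. miR-9-5p, the most abundant member, had 6649 ± 152 RPM in SE libraries, against 7927 ± 1307 RPM in CON libraries (SDs over 3 libraries each) and was not called, nor was miR-139-5p at -0.08. 3 of the 19 had a lower log2 difference than miR-335-5p. The lists were drawn up with earlier results of these data known, so the counts are not independent evidence of a direction.

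Marker miRNAs of cell types were summed beside miR-335-5p, and those of neurons, the defining cells of the labelled tissue, were present in every library. They summed, 5 of 5 detected, to 19139 to 23439 RPM in SE and 21130 to 25423 RPM in CON libraries. The endothelial pair miR-126a-3p and miR-126a-5p summed to 4355 to 5240 RPM in SE and 4817 to 6715 RPM in CON libraries. Mural and mesenchymal markers, 4 of 5 detected with miR-214-3p at 0 in all libraries, summed to 1502 to 1732 RPM in SE and 1469 to 2325 RPM in CON libraries. CON replicate 2 was lowest and CON replicate 3 highest of the CON libraries in both of these sums, as for miR-335-5p, and the oligodendrocyte and the microglial and leukocyte sums had the same order. How frequent this order is over all tested miRNAs was not counted.

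The groups did not overlap for 3 of the marker sums, each lower in SE libraries, and overlapped for the others. Over the 290 tested miRNAs, all 3 SE values lay below all 3 CON values for 13.4% and above them for 1.38%. Separation downward was thus the more frequent kind in the whole table. The astrocyte pair miR-29a-3p and miR-125b-5p summed to 10067 to 10310 RPM in SE and 10900 to 15824 RPM in CON libraries. The muscle markers, 3 of 3 detected, summed to 208 to 222 RPM in SE and 234 to 311 RPM in CON libraries. The liver miRNA miR-122-5p stood at 89.4 to 114 RPM in SE and 150.2 to 233 RPM in CON libraries. Oligodendrocyte markers summed to 262, 291 and 214.3 RPM in the SE libraries and to 395, 269 and 424 RPM in the CON libraries, with miR-219a-5p at 0 in CON libraries. Microglial and leukocyte markers, 4 of 4 detected, summed to 93.2, 87.8 and 75.9 RPM in the SE libraries and to 106.01, 73.3 and 111 RPM in the CON libraries. Choroid plexus markers summed to 257 to 561 RPM in SE and 293 to 449.8 RPM in CON libraries, with miR-211-5p at 0 in CON libraries. Red cell markers summed to 16.8 to 32.2 RPM in SE and 19.1 to 29.5 RPM in CON libraries, with miR-144-3p and miR-144-5p at 0 in all libraries and miR-451a at 0 in SE libraries. The part of cell type content in the values of miR-335-5p was not tested.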

How the data were processed

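Small RNA of brain vesicles was sequenced in 6 libraries, 3 SE and 3 CON. Per the labels' protocols, RNA was column-purified with DNase and made into libraries with the QIAseq miRNA kit. The authors worked with genome build mm9 and DESeq2, per the submitters' processing notes. Aligner, counter, annotation and any use of molecular identifiers are not given in the sources used here. The authors' deposited RPM values are reads scaled to the library's reads on listed miRNAs. Every RPM value was a whole number of reads within 0.01, taking the lowest value of each column as 2 reads, which gave depths and reads. Per the file headers, the authors' deposited table of fold changes holds a base mean signal (normalized counts), a log2 fold change and its standard error, the Wald score, and a p-value, raw and adjusted.

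CON rows were put back under their names: a miRNA's CON total is its base mean over 6 libraries, summed, less its normalized SE reads, and each of 687 such totals found its CON row within a relative 1e-08. The 6 size factors equal the median-of-ratios factors of the resulting table. The name changed for 665 rows.

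limma 3.58.1 (R 4.3.3) with trend was fitted to log2(RPM + 1) of 290 miRNAs averaging 10 RPM or more, with group as the factor, two-sided, Benjamini-Hochberg adjusted p under 0.05. The test was chosen for the deposited unit, RPM. The reads, inferred on the stated reading of the lowest value, went into limma-voom as an alternative, and edgeR was not run. Replicate numbers were not used to pair the samples in the main fit, and whether they mark pairs is not known. On simulated reads for 290 miRNAs in the comparison of SE with CON, with a dispersion of 0.04, limma called 94.0% of 2-fold changes, 100.0% of 4-fold changes and 0.870% of unchanged miRNAs. Wilson intervals are at 95%. Folding used RNAfold 2.7.2. Tables were made in Python 3.11.15 with pandas 2.3.3, scipy 1.17.1 and numpy 2.4.6, and figures with matplotlib 3.10.9.

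The members and lists were chosen with earlier results of these data known. Named miRNAs are both arms, the 5 and 3 of most like pattern, the 2 nearest in level on each side of each arm, the called members of each list and up to 3 of its most abundant others. miR-872-5p, miR-872-3p, miR-132-3p, miR-212-3p, miR-146a-5p, miR-376b-3p, miR-151 and miR-185 hairpins and the marker miRNAs were named after their values were seen. The alternatives tried were other pseudocounts (0.5 and 5 RPM), other filters (none, and 50 RPM), median-of-ratios, quantile and let-7-free scaling, limma without trend, robust limma, the replicate block and each library left out. limma-voom and the names as deposited were added after the data were seen.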

Additional observations from a re-analysis of the deposited data

How the results depend on the processing

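The log2 difference of miR-335-5p, SE minus CON, kept its sign and stayed uncalled under the 11 alternatives that kept all libraries and the names as put back, from -0.60 to -0.41. Under the names as deposited it was 0.0414, and there miR-335-3p had -0.17, limma called 0 miRNAs (2 at an unadjusted p under 0.05) and 0 of the excitability list, against 0.62, 3 and 2. Leaving out 1 library in turn gave -0.81 (without CON replicate 2, called) to -0.40 (without CON replicate 3) for miR-335-5p, 0.24 to 1.00 for miR-335-3p, 0.86 to 1.58 for the arm difference and 3 to 6 calls (6 without CON replicate 2, 5 without CON replicate 3). Counts of calls in the 4 lists did not change with a library left out. Rescaling to reads outside the let-7 family moved the median of all tested miRNAs by 0.12, and relative to that median miR-335-5p was at -0.52. The Dlk1-Dio3 median of -0.14 was -0.0023 with no filter and 0.0303 with quantile normalization, where the excitability median, -0.14 on the RPM scale, was 0.0218. The median of the listed intronic miRNAs, -0.10, was 0.0032 with median-of-ratios scaling and 0.0036 outside let-7. Of the 5 miRNAs most like miR-335-5p, 3 were also in the first 5 by Spearman's rho and 0 by deviations from the group means. The cause of these shifts was not tested. With a filter of 50 RPM miR-335-3p has no value. It enters no limma fit but the unfiltered one, so trend and robust settings do not apply to it. Same-numbered libraries had correlations of deviations of -0.42, -0.25 and 0.04, which give no sign of pairing. Deviations from the mean of 3 libraries constrain each other, so these values cannot exclude it. With the replicate block miR-335-5p was at -0.60 and uncalled, and 3 miRNAs were called. The 3 to 32 reads of miR-335-3p limit every statement on it.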
